A study of Homo sapiens with 20 samples.

Results

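The regions described here are promoter sites in A498 cells that hold the core of a hypoxia response element (HRE) and no palindromic E-box. Peaks from 4 CUT&RUN lists, for BMAL1 and for HIF2α under a control shRNA (shCNT) or an shRNA to BMAL1 (shBMAL1), were merged wherever they overlapped, which gave 8280 regions. The summit of a region was taken from its peak with the highest −log10 p. A region was a member when its summit lay within 1 kb of an annotated transcript start, when ACGTG or GCGTG stood on either strand within 100 bp of the summit, and when CACGTG did not. These rules selected 1689 regions (20.4% of the 8280), which lay nearest to the starts of 1631 different genes. The rule read sequence and position around the summit. Presence in a given list was not a criterion, except that every member is by construction in at least 1 list. The summit came from the strongest peak over the 4 lists, so the list with that peak set which bases were searched.

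A498 is an established line from clear cell renal cell carcinoma (ccRCC). By their labels the cells carried lentiviral shCNT (genotype WT) or shBMAL1 (genotype BMAL1 knockdown), and the antibodies were to BMAL1, to HIF-2α or an IgG isotype control. The 20 libraries fall into 6 groups, with 4 libraries in each BMAL1 and HIF2α group and 2 in each IgG group. The 4 lists analysed were 1 for each BMAL1 and HIF2α group, none was for IgG, and the lists carry no replicate values, so a difference between 2 lists could not be set against replicate spread. All libraries came from this 1 cell line, and each shRNA population was made by lentiviral transduction.

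HIF2α, encoded by EPAS1, is a basic helix-loop-helix PAS protein that pairs with ARNT and binds the HRE, whose core is ACGTG or, less often, GCGTG. It accumulates when the VHL ubiquitin ligase that marks it for destruction is lost, as is usual in ccRCC. BMAL1 belongs to the same protein family, pairs with CLOCK and prefers the palindromic E-box CACGTG, which contains the HRE core. The rule therefore leaves promoters that offer the HRE core without CACGTG within 100 bp of the summit, and the comparison asks which of the 2 antibodies recovered them. They are not free of clock motifs. CACGTT, a noncanonical E-box, was in the window of 10.4% of members, and some regions held CACGTG farther out (described further on).

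Sites at some of the strongest members are shown because the base before the core separated the 2 antibodies (described further on). Not every core is printed. The windows at PGK1, ZNHIT1, DDIT4 and MTR also hold GCGTG cores that are not shown, and LMNA holds a further GCGTG core. At DDIT4, which was also in both BMAL1 lists, the core nearest the summit is a GGCGTG at -16 bp. The TACGTG printed for it is at -88 bp. The sites are chosen examples. MAML1, a strong HIF2α member with GCGTG cores only, is not printed. Nor is IBA57, which led the members in all 4 lists and has mostly GCGTG cores. Each line gives 29 bases of GRCh37, read 5′ to 3′ on the strand that carries the core, with the core and the base before it in capitals. The first lines are from strong HIF2α members, at PGK1 (a glycolytic kinase), ZNHIT1 (a subunit of a chromatin remodelling complex), EIF4H (a cofactor of the eIF4A helicase), DDIT4 (an inhibitor of mTORC1) and MTR (methionine synthase). By GENCODE the summits at PGK1, ZNHIT1, EIF4H, CRY2, LMNA and STK32C are in an intron of some transcript, those at DDIT4 and NR1D1 are outside genes, and that at MTR is in an untranslated part of an exon.
PGK1, chrX:77359531-77359559, + strand: gcggcgtgccgGACGTGacaaacggaagc
PGK1, chrX:77359550-77359578, − strand: ggtactagtgaGACGTGcggcttccgttt
ZNHIT1, chr7:100861338-100861366, − strand: ctttgactcatTACGTGgcgtttccttgg
EIF4H, chr7:73589271-73589299, + strand: tcccttcccctTACGTGtgaggcagggat
DDIT4, chr10:74033545-74033573, + strand: agaacgttgctTACGTGcgcccggagtcc
MTR, chr1:236958636-236958664, − strand: cagaggaggacGACGTGacatccggctct
The next lines are from strong BMAL1 members, over both lists or in 1 list alone, at NR1D1 (the clock repressor REV-ERBα), CRY2 (a clock repressor), LMNA (lamin A/C) and STK32C (a protein kinase). MIR4470, stronger than LMNA among members with BMAL1 only in shCNT, held only AACGTG cores and is not printed.
NR1D1, chr17:38256916-38256944, − strand: tgctccagtgcCGCGTGcggcccgggaac
NR1D1, chr17:38256993-38257021, − strand: cgcaagagctcAACGTGccggctgttgga
CRY2, chr11:45868827-45868855, + strand: cacatggtaggAACGTGagggggcgggcc
CRY2, chr11:45868979-45869007, − strand: ccccggtaggcGACGTGgaccccgcccat
LMNA, chr1:156076236-156076264, − strand: gtgtgggcggcCGCGTGtgagtctgtgtg
STK32C, chr10:134121564-134121592, + strand: ctgagcgccggGGCGTGgcaggtgcggag

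For 4 members whose 201 bp window lay clear of annotated exons, the whole window is given on the strand of the gene, with each core in capitals (a core on the other strand reads CACGT or CACGC). KDM4B, a histone demethylase gene, and AK4, a mitochondrial adenylate kinase gene, were among the strongest HIF2α members. DBP, a clock output transcription factor gene, and TMEM141, which encodes a transmembrane protein, were among the strongest BMAL1 members. The KDM4B, DBP and TMEM141 windows lie upstream of the start, and the AK4 window lies in an intron.
KDM4B, chr19:4968592-4968792, + strand: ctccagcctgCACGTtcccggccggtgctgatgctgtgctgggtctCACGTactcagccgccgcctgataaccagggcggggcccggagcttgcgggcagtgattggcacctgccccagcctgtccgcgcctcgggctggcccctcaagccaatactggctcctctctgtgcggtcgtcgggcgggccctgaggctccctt
AK4, chr1:65614328-65614528, + strand: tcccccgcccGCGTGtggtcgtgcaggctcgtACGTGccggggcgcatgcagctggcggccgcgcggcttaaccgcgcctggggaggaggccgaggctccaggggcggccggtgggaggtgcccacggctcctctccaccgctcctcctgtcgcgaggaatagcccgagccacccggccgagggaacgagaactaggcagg
DBP, chr19:49140785-49140985, − strand: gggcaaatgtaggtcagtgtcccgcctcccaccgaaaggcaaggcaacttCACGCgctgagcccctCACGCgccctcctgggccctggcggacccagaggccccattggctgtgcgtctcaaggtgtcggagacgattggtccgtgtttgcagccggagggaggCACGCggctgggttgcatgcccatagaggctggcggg
TMEM141, chr9:139685334-139685534, + strand: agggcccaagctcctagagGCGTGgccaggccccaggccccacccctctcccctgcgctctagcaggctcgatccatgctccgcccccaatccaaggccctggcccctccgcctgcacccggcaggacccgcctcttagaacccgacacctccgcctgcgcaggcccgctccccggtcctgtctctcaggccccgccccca

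The lists differed in depth and in length before any region was chosen, and this touches every comparison between shRNAs. With BMAL1 they held 2350 peaks for shCNT and 4261 for shBMAL1, and with HIF2α 2361 and 3199. The BMAL1 peak number thus moved against the knockdown label, and statements on shBMAL1 refer to lists so labelled. Pileup, meaning how many fragments covered a summit, had a median of 5 to 8 per list. No peak had under 4 fragments with shCNT, or under 3 with shBMAL1. Genome background was 0.168 and 0.209 fragments per position in the shCNT lists (BMAL1, HIF2α) against 0.0839 and 0.109 under shBMAL1. Most members therefore rested on few fragments. Their median pileup with BMAL1 was 7 (shCNT) and 6 (shBMAL1), and with HIF2α it was 8 and 6. Intervals on shares below are Wilson 95% intervals and those on differences of shares are Newcombe 95% intervals. Both cover counting error over regions only, regions are not replicates of a condition, and copies of a molecule made by PCR are not independent.

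Members sat close to the start of genes. The median summit was 68 bp upstream (-68 bp, quartiles -168 and 33 bp), 1267 of the 1689 lay within 250 bp of the start (75%, interval 72.9 to 77.0%) and 1148 lay upstream of it (68.0%, interval 65.7 to 70.2%). By GENCODE, 539 summits were outside genes, 640 in an intron, 307 in an untranslated part of an exon, 136 in a noncoding exon and 67 in a coding exon. The nearest start belonged to a protein-coding gene for 1336 members and to a long noncoding RNA gene for 302. Summits in HIF2α lists only had a median of -34 bp (quartiles -150 and 64 bp, 633 members), those in BMAL1 lists only -77 bp (-172 and 14 bp, 706 members), and those of both antibodies -93 bp (-183 and 9 bp, 350 members). At the limit of the rule, the last members inside lay 996, 999 and 1000 bp from a start and the first HRE regions outside lay 1007, 1007 and 1009 bp away. Within 100 bp of the limit, 30 members lay inside it and 39 HRE regions outside it.

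**Figure D1:**
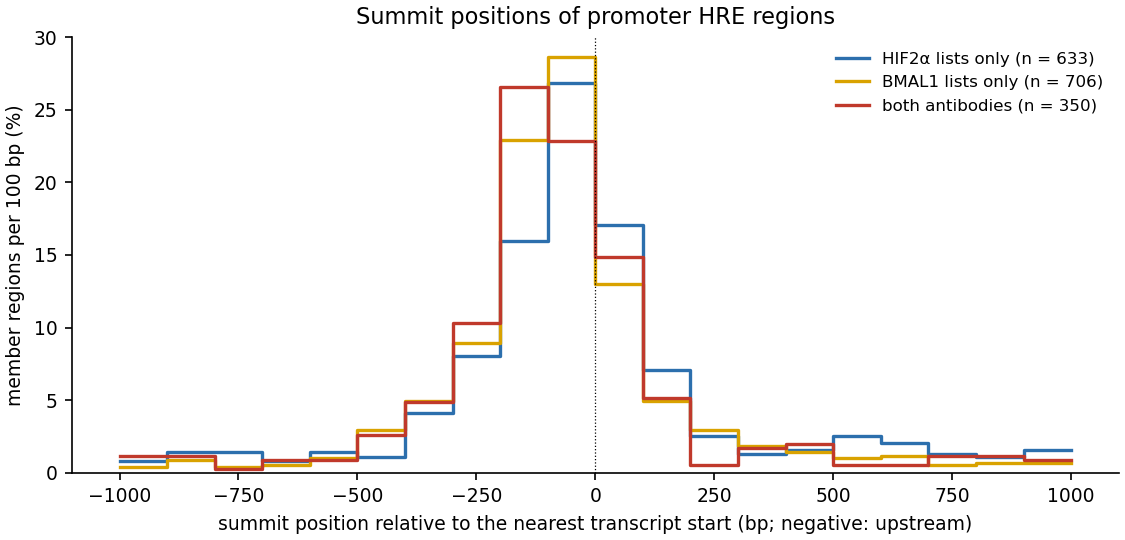
The x axis gives the position of the summit relative to the nearest transcript start in bp (negative is upstream) and the y axis the percent of members per 100 bp, for 633 members in HIF2α lists only, 706 in BMAL1 lists only and 350 recovered by both antibodies. All 3 distributions peak within 200 bp upstream of the start.

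The 4 lists recovered members in different proportions. A member was present in shCNT HIF2α in 668 cases (39.6%, interval 37.2 to 41.9%) and in shBMAL1 HIF2α in 720 (42.6%, interval 40.3 to 45.0%), where the share over all 8280 merged regions was 28.3% and 38.4%. For BMAL1 the member counts were 573 in shCNT (33.9%, interval 31.7 to 36.2%) and 805 under shBMAL1 (47.7%, interval 45.3 to 50%), where the share over all regions was 28.3% and 51.3%. Relative to all merged regions, members were thus present more often in both HIF2α lists and in shCNT BMAL1, and less often in the BMAL1 list labelled shBMAL1. The order between shRNAs depended on list length. With every list cut to its 2350 strongest peaks, members were in shCNT more often than in shBMAL1 for BMAL1 (39.7% against 36.8%) and for HIF2α (46.4% against 40.4%).

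Either HIF2α list held 983 members (58.2%, interval 55.8 to 60.5%), against 50.9% of all regions, and either BMAL1 list held 1056 (62.5%, interval 60.2 to 64.8%), against 66.1% of all regions. Because a member missing from both HIF2α lists must be in a BMAL1 list, these shares are tied to each other. HIF2α lists alone held 633 members, BMAL1 lists alone 706, and 350 were recovered with both antibodies (20.7%, interval 18.9 to 22.7%). Most members, 924, were in exactly 1 list (54.7%, interval 52.3 to 57.1%), whereas 66.6% of all regions were. The largest combination was shBMAL1 BMAL1 alone, with 372 members (22.0%) against 33.0% of the other regions. Both HIF2α lists and no BMAL1 list held 245 members (14.5%, interval 12.9 to 16.3%), against 7.65% of the other regions. All 4 lists held 82 members (4.85%, interval 3.93 to 5.99%), against 2.40% of the other regions.

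**Figure D2:**
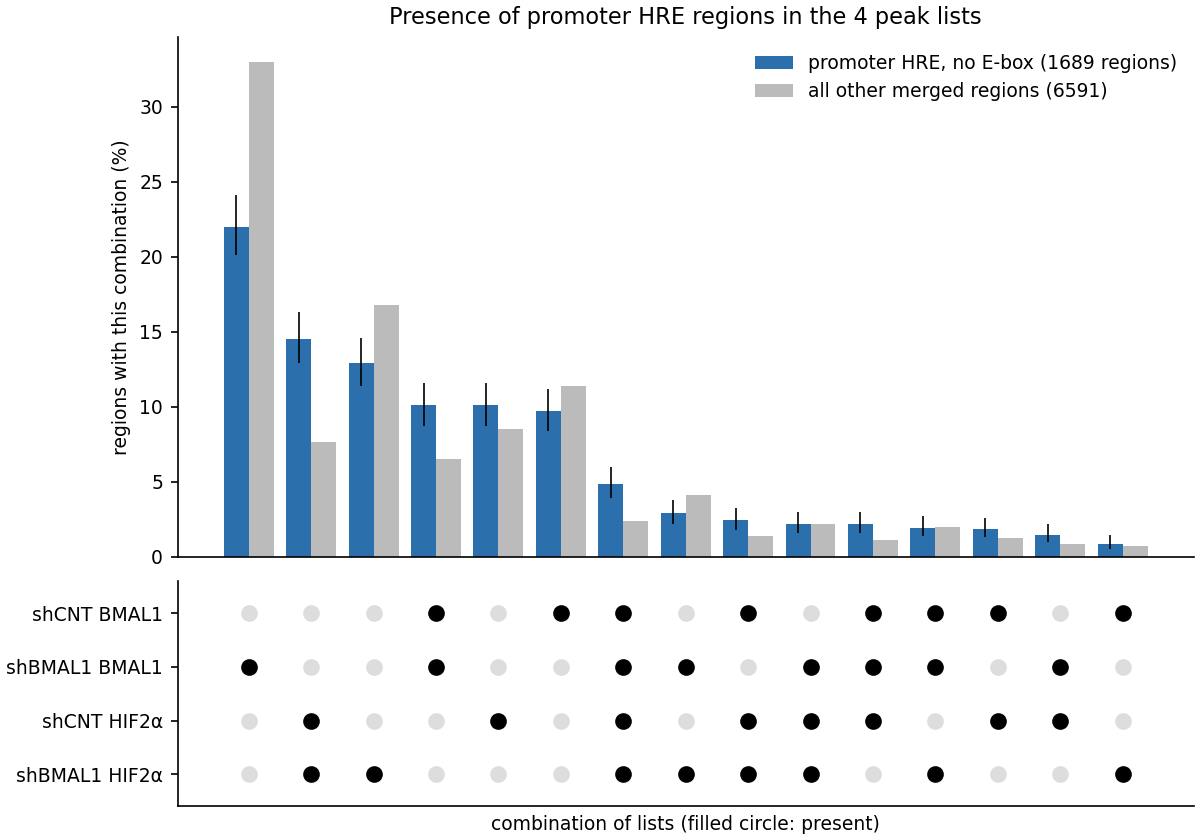
Bars give the percent of the 1689 members (blue, with Wilson 95% intervals) and of the 6591 other merged regions (grey) in each of the 15 combinations of lists, and filled circles below mark the lists in which the regions were present. Members exceed the other regions at both HIF2α lists together, both BMAL1 lists together and all 4 lists, and fall below them at shBMAL1 BMAL1 alone and shBMAL1 HIF2α alone.

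Against other classes of region, members were set apart by antibody. Promoter regions with neither motif (1324) were in a HIF2α list in 43.7% of cases, 14.5 points below the members (interval of the difference 11 to 18.1 points). Promoter regions with an E-box (267) were in a HIF2α list in 48.7%, 9.51 points below (interval 3.09 to 15.9). Distal regions with an HRE and no E-box (1775) were in one in 70%, and members lay 11.8 points below them (difference -11.8, interval -15.0 to -8.64). For BMAL1 the E-box made the larger difference in shCNT. The shCNT BMAL1 list held 55.1% of E-box promoters and 33.9% of members (difference -21.1 points, interval -27.4 to -14.7), whereas members and promoters with neither motif differed by 0.315 points (interval -3.09 to 3.70). In the BMAL1 list labelled shBMAL1 the order of members and E-box promoters was turned around, at 47.7% and 39.3% (difference 8.34 points, interval 1.91 to 14.5).

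The base before the core divided the members by antibody. CACGTG, which the rule removes, has cytosine in that place, so thymine, guanine and adenine remained before ACGTG. Windows were grouped by whether all their cores were of 1 kind. Members with TACGTG alone (129) were in a HIF2α list in 93.8% of cases (interval 88.2 to 96.8%) and in a BMAL1 list in 27.9% (interval 20.9 to 36.2%). With GACGTG alone (149) the shares were 75.8% (interval 68.4 to 82.0%) for HIF2α and 51.0% (interval 43.1 to 58.9%) for BMAL1. With AACGTG alone (92), which on the other strand reads CACGTT, a noncanonical E-box of clock genes, they were 51.1% (interval 41.0 to 61.1%) and 64.1% (interval 53.9 to 73.2%). Members with GCGTG cores alone, the largest group (985), were in a HIF2α list in 43.6% (interval 40.5 to 46.7%) and in a BMAL1 list in 74.8% (interval 72 to 77.4%). The difference in HIF2α share between TACGTG and GCGTG members was 50.2 points (interval 43.9 to 54.6), and that between AACGTG and GCGTG members was 7.53 points with an interval from -2.99 to 18.0. A further 332 members held cores of more than 1 kind, and 2 had an E-box that crossed the edge of the window.

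The same order held in each HIF2α list on its own. In shCNT HIF2α the shares were 79.8% for TACGTG, 47.7% for GACGTG, 30.4% for AACGTG and 26.9% for GCGTG members, and under shBMAL1 75.2%, 56.4%, 40.2% and 30.1%. In shCNT BMAL1 the order was the opposite, at 14.0%, 28.9%, 32.6% and 40.2%. The BMAL1 shares by core are not independent of the HIF2α shares, because a member missing from both HIF2α lists must be in a BMAL1 list. Some neighbours in these orders have intervals that overlap, such as AACGTG and GCGTG in shCNT HIF2α (22.0 to 40.5% and 24.2 to 29.8%). No interval on the difference was computed within a single HIF2α list. TACGTG members were also placed higher within the HIF2α lists, with a median percentile of −log10 p (its rank within the list, 100 for the strongest) of 68.5 in shCNT and 79.1 under shBMAL1, against 43.4 and 44.5 for GCGTG members. Distal HRE regions, which are not members, gave similar shares in a HIF2α list, at 92.6% of 430 with TACGTG alone and 49.4% of 654 with GCGTG alone.

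**Figure D3:**
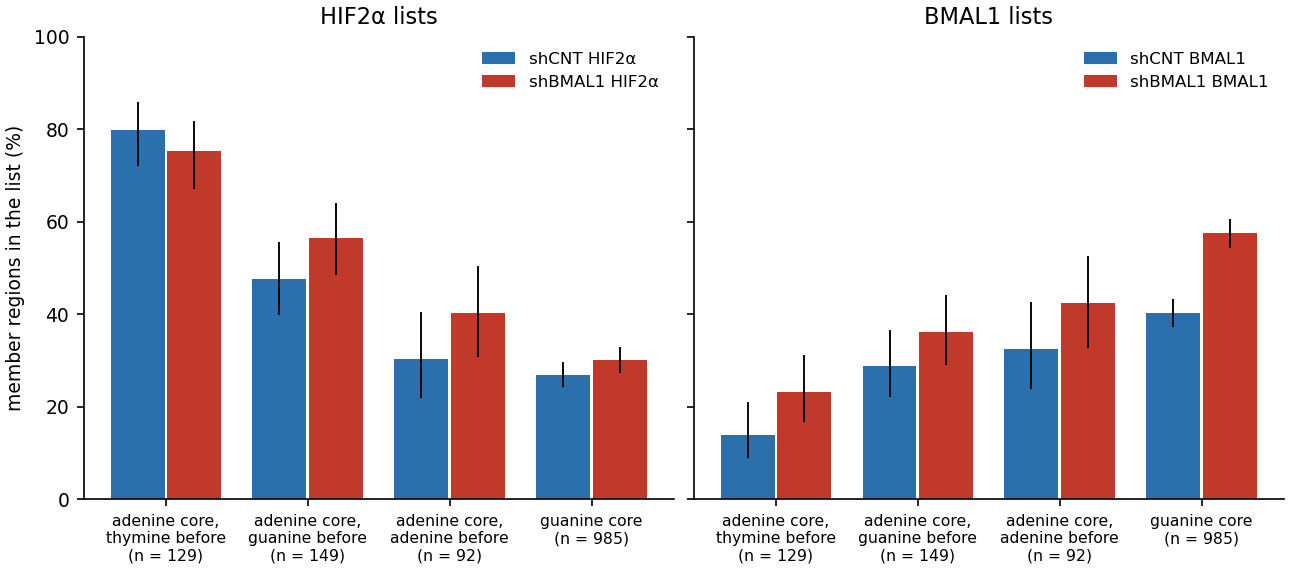
Bars give the percent of members present in each HIF2α list (left) and BMAL1 list (right), blue for shCNT and red for shBMAL1, with Wilson 95% intervals, by the first base of the core (adenine or guanine) and the base before it. HIF2α shares run from 79.8% and 75.2% with thymine before an adenine core down to 26.9% and 30.1% with guanine cores. The shCNT BMAL1 shares run the other way, from 14.0% to 40.2%, and are tied to the HIF2α shares because every member is in at least 1 list.

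GC content and position moved with the kind of core. The median GC content of the 201 bp window was 57.7% in TACGTG members and 66.2% in GCGTG members. In windows under 60% GC, 94.3% of 70 TACGTG members and 53.0% of 234 GCGTG members were in a HIF2α list, and in windows of 70% GC or more 100% of 17 and 36.9% of 320. With 1 core in the window the shares were 93.5% of 124 and 41.5% of 632. With the summit within 250 bp of the start they were 93.3% of 89 and 44.2% of 767, and with the summit farther away 95% of 40 and 41.3% of 218. TACGTG members had the higher HIF2α share in each of these strata, by the least under 60% GC.

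Cytosine after the core went with a still higher HIF2α share, in heptamers that were picked after the values were seen and carry no test. Members with TACGTGC (118, whatever other cores they held) were in a HIF2α list in 98.3% of cases, and those with GACGTGC (119) in 90.8%. TACGTGC was present in 14.4% of the 633 members in HIF2α lists only, in 0.283% of the 706 in BMAL1 lists only (2 members) and in 7.14% of the 350 with both antibodies. Of 19747 windows of the same length at protein-coding gene starts, 2.03% held TACGTG (14.5% of members and 10.1% of all merged regions did). Members hold a core by the rule and most of these windows do not, so the 2.03% is not a like comparison. Of the windows 7367 held an HRE core and no E-box. Among the 7367, 5.08% held TACGTG and 1.52% held TACGTGC. At the other end, GGGCGTG was present in 34.8% of members in BMAL1 lists only, 14.8% of those in HIF2α lists only and 18.4% of the 7367 gene start windows. This heptamer begins with the same letters as the GC box GGGCGG, and the part of that overlap in these shares was not tested.

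The number of cores and their distance from the summit varied less. A total of 983 members held 1 core, 468 held 2, 156 held 3 and 82 held 4 or more. The share in a HIF2α list was 53.5% with 1 core (interval 50.4 to 56.6%), 63.5% with 2 (59.0 to 67.7%), 66.0% with 3 (58.3 to 73.0%) and 69.5% with 4 or more (58.9 to 78.4%). The nearest core was a median of 39 bp from the summit (quartiles 16 and 64 bp), with 42 bp for members in HIF2α lists only, 40 bp in BMAL1 lists only and 34 bp for both. Of the 2787 cores, 54.1% stood on the strand of the nearest gene (interval 52.2 to 55.9%).

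Other promoter motifs were counted in the same windows, on both strands. The GC box GGGCGG, bound by Sp1, was present in 58.0% of members (interval 55.7 to 60.4%), in 49.1% of promoter regions with neither motif, in 12% of distal HRE regions and in 50.4% of protein-coding gene start windows. Members with a GC box were in a BMAL1 list in 69.7% of cases and members without one in 52.6%. For HIF2α the shares were 53.1% with and 65.3% without, and they are tied to those for BMAL1 as described above. CCAAT, the NF-Y site, was present in 32.7% of members, 34.1% of promoter regions with neither motif and 25.4% of gene start windows. CCGGAAG, an ETS site, was present in 9.95%, 8.23% and 10.7%, in the same order. The AP-1 site (TGACTCA or TGAGTCA) was found in 4.68% of members (interval 3.77 to 5.79%), below the 8.08% of promoter regions with neither motif and 10.1% of E-box promoters. It was in 22.8% of distal HRE regions and in 2.32% of gene start windows. CACGTT was found in 10.4% of members and 14.1% of distal HRE regions. It was in 3.24% of gene start windows, and in 8.12% of those with an HRE core and no E-box. The other motifs examined, namely the cAMP response element TGACGTCA, TGACGTG, NRF1, AACCACA for RUNX and ATGGCGG for YY1, were each present in under 4% of members. A match is a description of letters and does not show that a factor was bound.

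Persistence of HIF2α at members was then compared between the shRNAs. Of the 668 members in shCNT HIF2α, 405 were also in shBMAL1 HIF2α (60.6%), where the share over all shCNT HIF2α regions was 55.8%. The share was 38.5% for promoter regions with neither motif, 22.1 points lower (interval 15.6 to 28.3), 50.6% for E-box promoters (difference 10.0 points, interval -1.11 to 21.2) and 69.0% for distal HRE regions (difference -8.33 points, interval -13.3 to -3.34). Strength moved with this share. Ranked by −log10 p in shCNT, 35.7% of 112 members in the lowest quartile were also in the other list, then 41.6% of 178, 64.2% of 190, and 89.9% of 188 in the strongest. In the strongest quartile promoters with neither motif reached 94.6% of 37, against 23.1% of 121, 26.6% of 109 and 54.4% of 68 from the weakest up. Members were above them in the 3 weaker quartiles and not in the strongest. The Wilson intervals of both classes overlapped in each weaker quartile. Such overlap is not an interval on the difference, which was not computed by quartile. By kind of core, 76.7% of 103 TACGTG members were in both HIF2α lists and 49.8% of 265 GCGTG members (difference 26.9 points, interval 16.1 to 36.2). In the stronger pair of quartiles these shares were 84.7% of 72 and 72.2% of 108, and in the weaker pair 58.1% of 31 and 34.4% of 157.

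Persistence of HIF2α did not differ detectably between members with and without BMAL1 in shCNT. Of the 668 shCNT HIF2α members, 191 were also in shCNT BMAL1 (28.6%, interval 25.3 to 32.1%), where the share over all shCNT HIF2α regions was 25.6%. Of these 191, 123 were in shBMAL1 HIF2α (64.4%), and of the 477 without BMAL1, 282 (59.1%). These 2 shares lay 5.28 points apart (interval -2.96 to 13.1). Over all merged regions the shares were 62.5% of 600 with BMAL1 (interval 58.6 to 66.3%) and 53.4% of 1744 without (51.1 to 55.8%), and over promoters with neither motif 55% of 109 and 30.5% of 226, the same direction in each. Between lists of different shRNAs, 27.1% of shCNT HIF2α members were in shBMAL1 BMAL1, and within shBMAL1 27.9% of 720 HIF2α members were in the BMAL1 list, where the share over all shBMAL1 HIF2α regions was 28.6%.

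For the BMAL1 antibody, 322 of 573 shCNT members were also in the shBMAL1 list (56.2%), where the share over all shCNT BMAL1 regions was 47.7%. E-box promoters were in both BMAL1 lists in 34.0% of 147 cases, 22.2 points below members (interval 13.2 to 30.4). The gap was present in the strongest quartile, at 76.7% of 180 members and 45.0% of 60 E-box promoters. Members and distal HRE regions differed by 2.61 points (interval -3.97 to 9.21). Among the members in both BMAL1 lists, the median percentile of −log10 p was 67.6 in shCNT and 81.6 under shBMAL1 (lists of 2350 and 4261 peaks). Over all 1120 merged regions in both it was 61.4 and 72.1, so the higher rank under shBMAL1 was not particular to members, and over the 50 E-box promoters in both it was 78.0 and 73.3.

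**Figure D4:**
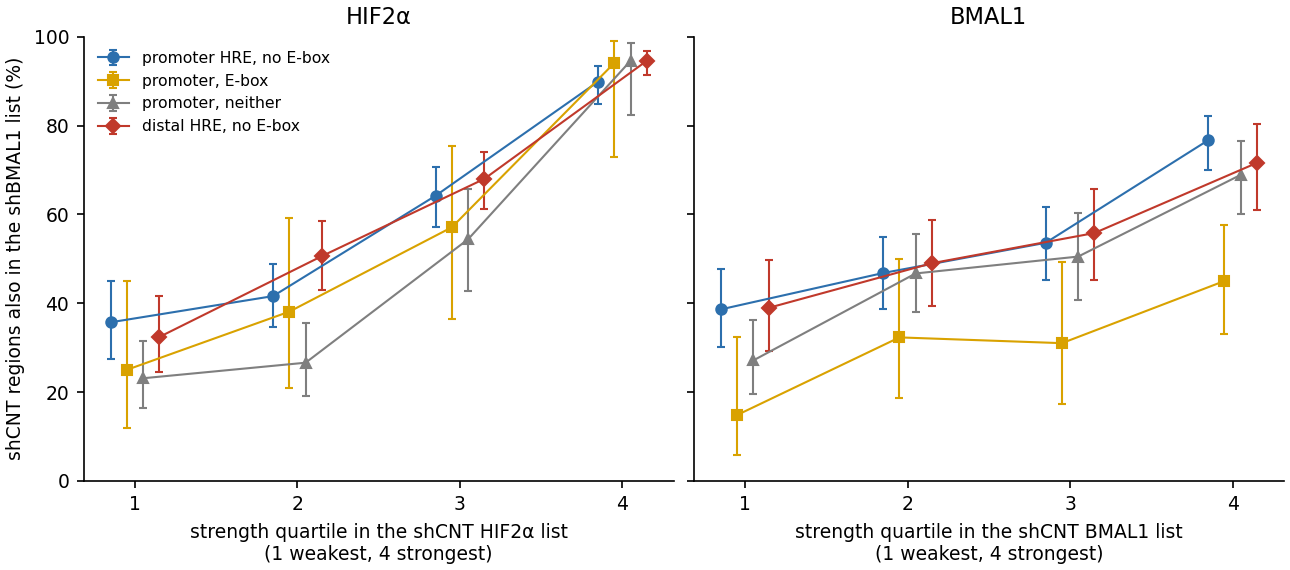
The y axis gives the percent of shCNT regions also found in the shBMAL1 list of the same antibody (left HIF2α, right BMAL1), with Wilson 95% intervals, and the x axis the quartile of −log10 p within the shCNT list. For members (blue; E-box promoters yellow, neither motif grey, distal HRE red) the shares run from 35.7% to 89.9% for HIF2α and from 38.6% to 76.7% for BMAL1, and the E-box promoters lie lowest for BMAL1 in every quartile.

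Height at members in both HIF2α lists was compared after division by each list's genome background. The median log2 ratio of shBMAL1 over shCNT was 0.55 over the 405 members (quartiles 0.25 and 0.93), 0.55 over 129 promoters with neither motif and 0.64 over 511 distal HRE regions. Members did not stand apart on this scale. The lowest scaled height that could be called was 19.1 in shCNT and 27.4 under shBMAL1, and the part of this limit in the positive ratio was not tested. On the deposited fold, enrichment over local background, the median log2 ratio was -0.14.

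Genes of glucose use were among the HIF2α members, with PGK1 the strongest of all. The gene lists here and below were chosen with earlier results of these data known, so their shares are descriptions only. Of 22 genes of glucose uptake and glycolysis, 11 had a member region (50%, against 6.39% of 20149 protein-coding genes), of which 10 were in a HIF2α list and 5 in a BMAL1 list. A promoter region of any class was found at 12 of the 22 and at 2334 of the 20149. Over all 1288 protein-coding genes with a member, 58.3% were in a HIF2α list, 64.3% in a BMAL1 list, and 23.8% had a member in both HIF2α lists, against 8 of the 11 here. The PGK1 region (chromosome X, 77359237 to 77359841) had the highest −log10 p of all members in both HIF2α lists, with a pileup of 199 in shCNT and 129 under shBMAL1, and was in neither BMAL1 list. Local background there was 5.24 fragments in shCNT and 0.806 under shBMAL1, against HIF2α genome backgrounds of 0.209 and 0.109. Whether all fragments there came from the gene's own promoter was not tested. The 3 cores of the PGK1 region include both GACGTG sites printed above. ALDOA, the muscle-type aldolase, had a HIF2α pileup of 39 and 27 (shCNT and shBMAL1) and was in the BMAL1 list of shBMAL1 alone, with a pileup of 6. GAPDH had 21 and 16 fragments with HIF2α and 4 with BMAL1 under shBMAL1. PDK1, the kinase that limits pyruvate entry into mitochondria, had 25 and 13 with HIF2α, at percentiles of 93.4 and 38.3, and 8 with BMAL1 in shCNT alone. LDHA, lactate dehydrogenase A (16 and 11), and PFKFB4, a regulator of glycolytic flux (11 and 13), named like SLC16A3 after their values were seen, were in both HIF2α lists and no BMAL1 list. SLC16A3, the lactate exporter, was the 1 gene of the list seen with BMAL1 and not HIF2α, at a pileup of 6 under shBMAL1.

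Genes of hypoxic stress and mitophagy had a still larger share with a member. Of 16 genes, 10 had a member (62.5%), all 10 were in a HIF2α list, 9 had a region in both HIF2α lists, and 6 were also in a BMAL1 list. A promoter region of any class was found at 13 of the 16. KDM4B and KDM3A, which encode histone demethylases that use oxygen, had HIF2α pileups of 51 and 37 (KDM4B) and of 55 and 33 (KDM3A), shCNT first. BMAL1 was recorded at KDM4B in both lists (13 and 5) and at KDM3A under shBMAL1 alone, at the lowest pileup called there, 3. DDIT4 had 42 and 27 fragments with HIF2α and 8 and 7 with BMAL1. Among the 3 strongest members of both HIF2α lists, with PGK1 and KDM4B, was ZNHIT1, on no gene list, with 59 and 32 HIF2α fragments and 7 and 5 with BMAL1. AK4 (chromosome 1, 65613809 to 65614618) was the strongest member in shCNT HIF2α that was not in shBMAL1 HIF2α, with 28 fragments, a fold of 24 and a percentile of 97.4. It was in neither BMAL1 list, and its window holds TACGTGC. Next in that set came EIF4H (27 fragments, fold 17.7) and MAML1, a Notch coactivator gene (fold 16.5), and MAML1 was also in both BMAL1 lists.

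**Figure D5:**
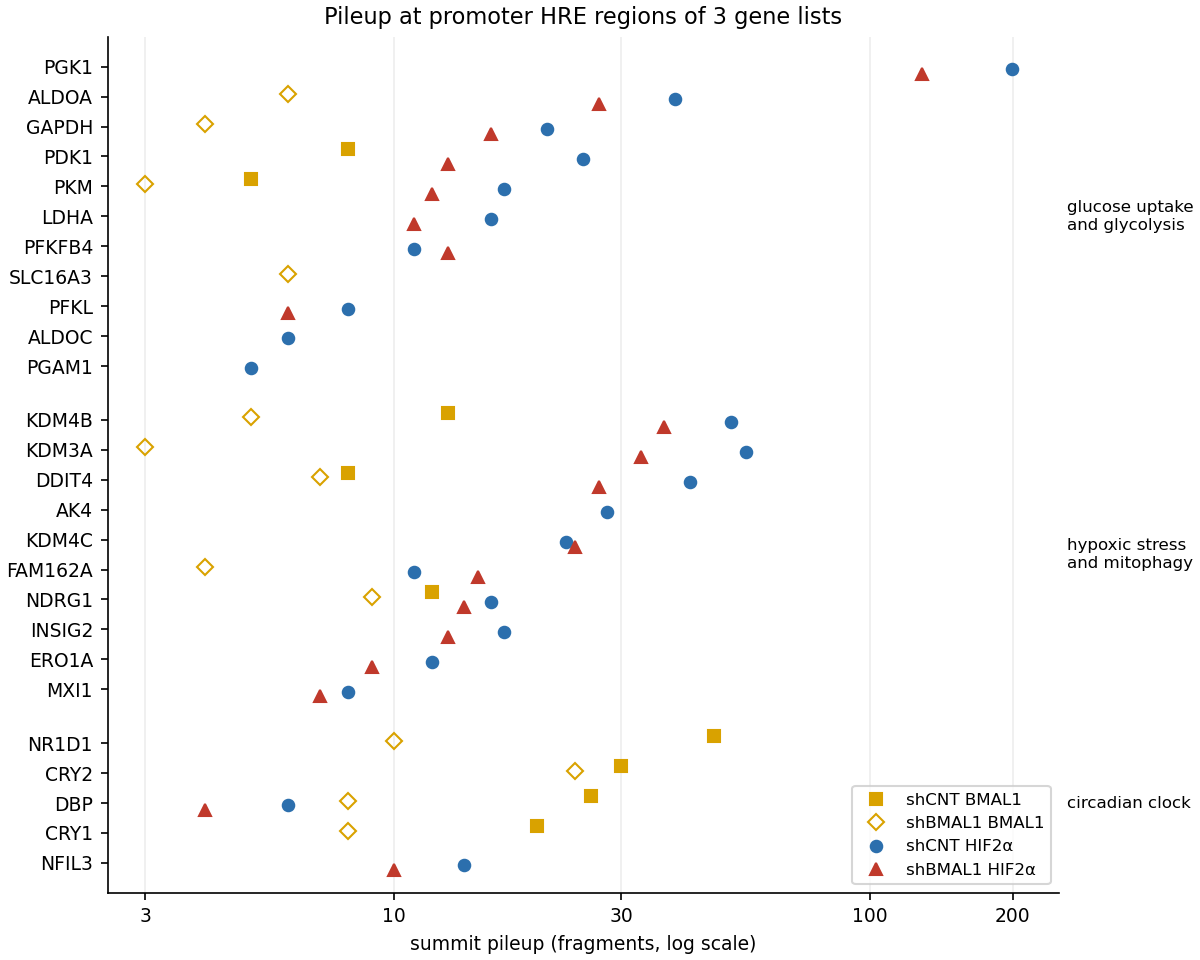
Points give the summit pileup in fragments (log axis) in each list for the member region of each gene, or the stronger by −log10 p where a gene has 2, for the lists of glucose use, hypoxic stress and circadian clock genes, and no point means that the region was not in that list. HIF2α points (blue circles shCNT, red triangles shBMAL1) lie to the right of BMAL1 points (yellow) at every plotted region of the first 2 lists with both antibodies (a weaker MXI1 region, not plotted, had 7 BMAL1 and 5 HIF2α fragments in shCNT), and the reverse holds at DBP, the clock gene with both.

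Among angiogenic and secreted HIF targets, 5 of 16 genes had a member, all 5 were in a HIF2α list and 4 in both. A promoter region of any class was found at 7 of the 16. VEGFA, the main angiogenic ligand (chromosome 6, 43736772 to 43738307), had 21 and 18 fragments, at percentiles of 94.3 and 97.2, and no BMAL1 peak. P4HA1, a collagen prolyl hydroxylase gene, had 12 and 8 with HIF2α alone, and TGFA, the EGFR ligand, had 7 and 7 with HIF2α and 5 with BMAL1 under shBMAL1. Of 15 genes of oxygen sensing and bHLH-PAS factors, 4 had a member and 9 had a promoter region of any class. CITED2, an inhibitor of HIF transactivation, was in both HIF2α lists (19 and 13). EPAS1 itself was in shCNT HIF2α alone at 5 fragments, HIF3A in shBMAL1 HIF2α alone at 5, and EGLN2, a prolyl hydroxylase gene, in both BMAL1 lists (6 and 7).

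Clock genes gave the strongest members of the shCNT BMAL1 list. Of 16 clock genes, 5 had a member (31.2%, against 6.39% of all protein-coding genes), 4 of them in both BMAL1 lists. Over all 1288 protein-coding genes with a member, 254 were in both BMAL1 lists. A promoter region of any class was found at 11 of the 16 clock genes. NR1D1 (chromosome 17, 38256628 to 38257563, summit at -71 bp) had 47 fragments in shCNT and 10 under shBMAL1, at percentiles of 99.4 and 87.1. CRY2 had 30 and 24 (percentiles 99.2 and 98.4), DBP 26 and 8 (99.2 and 85.9), and CRY1 20 and 8 (98.9 and 82.4). All 4 thus had the lower pileup and percentile under shBMAL1. Divided by genome background, the height was also lower there at NR1D1 (280 and 119), DBP (155 and 95.4) and CRY1 (119 and 95.4), but higher at CRY2 (179 and 286). The NR1D1 region held a CACGTG outside the window, 390 bp from the summit, and the CRY2, DBP and CRY1 regions held none. NR1D1 and CRY2 each carry an AACGTG, printed above, and the 3 DBP cores are all CGCGTG. DBP was also in both HIF2α lists at low rank (6 and 4 fragments, percentiles 11.8 and 18.3), and NFIL3, a repressor that shares DBP's sites and was named after its values were seen, was in both HIF2α lists (14 and 10) and no BMAL1 list.

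An E-box elsewhere in the region was not common among members. It was found in 131 of 1689 (7.76%, interval 6.57 to 9.13%), with BMAL1 in 11.9% of the shCNT and 7.58% of the shBMAL1 members, and with HIF2α in 12.7% and 11.2%. The median region was 301 bp wide over all members and 770 bp over those in all 4 lists. Among the 50 strongest members of each list the counts were 8, 3, 11 and 10, in the same order. Besides NR1D1, the regions at MTR, MIR4470, KDM4B, ELL and ZNHIT1 held a CACGTG. It lay 167, 172, 193, 270 and 874 bp from the summit, in that order.

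Genes outside the clock led the BMAL1 list labelled shBMAL1. The highest −log10 p in shBMAL1 BMAL1 belonged to TMEM141, TMEM87B and IQUB, with folds of 40.1, 36.9 and 37.4 and a percentile of 99.9 each. In shCNT BMAL1 the same regions had folds of 17.1, 12.2 and 12, at percentiles of 99.0, 97.5 and 97.6. Their cores were all GCGTG. TMEM141 was also in shCNT HIF2α (percentile 32.4), TMEM87B in both HIF2α lists (14.5 and 81.4), and IQUB in neither. The strongest members found with BMAL1 only under shBMAL1 were STK32C (fold 22.1), the microRNA gene MIR647 (18.9) and HMG20B, a gene of a chromatin corepressor complex (16.9), none in a HIF2α list. Those with BMAL1 only in shCNT were MIR4470 (19 fragments, nearest coding gene ASPH, 112 bp away on the upstream side), LMNA (13) and GCSH, a glycine cleavage protein gene (13). LMNA was also in both HIF2α lists, with folds of 12.4 and 6.22, and GCSH in shCNT HIF2α, with a fold of 7.42.

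Members present in all 4 lists with a high place in each were IBA57 (iron-sulfur cluster assembly), NDRG1 (a hypoxia-induced stress gene), DDIT4, ELL (a transcription elongation factor) and SPAG4 (a nuclear envelope protein). The lowest of the 4 percentiles was 94.2 at IBA57, 86.8 at NDRG1, 84.0 at DDIT4, 82.7 at ELL and 80.9 at SPAG4. IBA57 had 7 cores in its window, of which 6 were GCGTG and 1 AACGTG. DDIT4 differed from the other 4 in the size of the HIF2α signal, with folds of 35.6 and 25.2 against 7.71 and 7.38 for BMAL1. At SPAG4 the fold with BMAL1 was 7.62 in shCNT and 23.7 under shBMAL1.

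HIF2α members found only under shBMAL1 stood lower in their list than the strongest shared ones. First came MTR (14 fragments, fold 13.2, percentile 93.6), the long noncoding RNA gene ENSG00000265845 (fold 11.6, percentile 90.9) and the protein-coding gene ENSG00000159239 (fold 9.62, percentile 85.9). MTR was also in shBMAL1 BMAL1 (percentile 28.1). Of 720 shBMAL1 HIF2α members, 315 were not in shCNT HIF2α (43.8%, interval 40.2 to 47.4%), against 58.9% of all 3179 merged regions in that list. The share was 49.6% for distal HRE regions, 52.8% for E-box promoters and 65.3% for promoters with neither motif.

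Housekeeping lists were represented nearer to the rate of all genes. Member regions were found at 4 of 86 cytosolic ribosomal protein genes (4.65%), 4 of 68 histone genes (5.88%), 8 of 71 translation factor genes (11.3%), 9 of 78 mitochondrial ribosomal protein genes (11.5%), 8 of 58 splicing factor genes (13.8%) and 6 of 39 proteasome genes (15.4%). Of the 8 splicing factor genes 6 were in a HIF2α list and 4 in a BMAL1 list, and the strongest, SRSF9 (14 and 16 fragments) and SRSF7 (13 and 11), were in HIF2α lists alone. Of the 9 mitochondrial ribosomal protein genes 7 were in a BMAL1 list and 4 in a HIF2α list, where 64.3% and 58.3% of all genes with a member were.

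Stress response lists had a larger share of genes with a member. Of 16 genes of the integrated stress and unfolded protein responses, 4 had one (25%, against 6.39% of all protein-coding genes), of which 4 were in a BMAL1 list and 1 in a HIF2α list, where 64.3% and 58.3% of all genes with a member were. Among these DDIT3, which encodes CHOP, had 7 and 8 BMAL1 fragments and no HIF2α peak. Of 13 immediate early and AP-1 genes, 4 had a member (30.8%), and JUN (17 and 12) was in both HIF2α lists and no BMAL1 list, while FOSL2 (17 and 6) had BMAL1 under shBMAL1 as well (7).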

How the data were processed

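Fragments bound with antibodies to BMAL1 or HIF2α were sequenced by CUT&RUN from A498 cells, in 20 libraries. The submitters' processing notes name Bowtie2 2.5.3, SAMtools 1.6, MACS2 2.2.9.1 and bedtools 2.31.1. Per the study's methods, reads were aligned to hg19 (GRCh37), peaks passed p of 1e-05, gaps of up to 400 bp were bridged, and blacklisted regions were removed. How libraries were pooled for each list and whether IgG served as the control are not given in the sources used here.

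The deposited lists hold, for each peak, a score, a signal value that is the fold enrichment (ratio) over local background, and −log10 values of p and q. From the deposited fold and −log10 p-value the pileup at the summit and the local background were recovered. Peaks were merged at an overlap of 1 bp, and starts came from basic transcripts of GENCODE release 44 mapped to GRCh37. Cores were searched in 201 bp windows. Computation used pysam 0.24.0 for sequence, pandas 2.3.3 and numpy 2.4.6 for tables, scipy 1.17.1 for statistics and matplotlib 3.10.9 for plots, under Python 3.11.15. The merging and decoding steps were tested on simulated data.

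Named genes were the 3 members with the highest −log10 p in each list, and in both lists or 1 list alone of each antibody. They also include the 5 members in all 4 lists with the highest lowest percentile, and up to 4 members of each gene list. Genes named beyond this rule are marked as such, and 2 genes under it are not reported here. The members and gene lists were chosen with earlier results of these data known. Alternatives covered the p limit, list length, merge gap, promoter length, transcripts, window, summit and lowest pileup. Libraries without a list (IgG) were not analysed here. Sequences are those of the GRCh37 genome.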

Additional observations from a re-analysis of the deposited data

How the results depend on the processing

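The 18 results were computed again under 12 alternatives. A change of sign was possible only for the differences of shares and the log2 ratio of height, and none occurred. No alternative changed the scale of height, and the sign of that ratio depends on it. The median was 0.55 on background-scaled pileup and -0.14 on the deposited fold. Shares and counts have no sign. Among them the order of shCNT and shBMAL1 in presence did turn around in some alternatives, such as lists cut to the shortest length. The number of members, 1689, ranged from 1055 to 2218, and 11 of its 12 values were within 1.5 times of it. Of the other results, 153 values stayed within the counting interval of the reported value and 51 did not. Merging peaks within 400 bp and taking the summit of the peak with the highest fold took none out of these limits. At −log10 p of at least 8, presence was 29.6% in shCNT BMAL1, 45.1% in shBMAL1 BMAL1 and 39.3% in shBMAL1 HIF2α, the HIF2α excess over promoters with neither motif was 18.8 points, HIF2α shares were 97.2% for TACGTG and 36.1% for GCGTG members, co-occupancy in shCNT was 19.7% and the GC box 62.1%. With lists cut to the shortest length, presence was 39.7% (shCNT BMAL1), 36.8% (shBMAL1 BMAL1) and 46.4% (shCNT HIF2α), and 45.4% of BMAL1 and 55.5% of HIF2α members were in both lists. With a pileup of at least 5 the values were 37.8%, 41.5% and 46.1%, with 38.8% in shBMAL1 HIF2α, and 50% and 56.2% in both lists. Windows of 50 bp to either side gave 1055 members, a HIF2α excess of 8.82 points, 46.8% for GCGTG, GC box 42.2%, CCAAT 19.7% and AP-1 2.94%. Windows of 200 bp gave a HIF2α excess of 19.5 points, a BMAL1 difference from E-box promoters of -7.00 points, 67.5% for GACGTG, presence of 36.4% and 40.1% in shCNT and shBMAL1 HIF2α, 56.7% in both, GC box 73.6%, CCAAT 47.3% and AP-1 8.45%. A promoter of 5 kb gave a HIF2α excess of 20.3 points, presence of 31.0% in shCNT BMAL1 and 45.0% in shBMAL1 HIF2α, GC box 48.1%, CCAAT 29.9% and AP-1 8.57%. A promoter of 500 bp gave GC box 61.4%, and protein-coding starts alone 60.5% with AP-1 3.57%. In alternatives chosen after seeing the data, all transcripts gave GC box 55.4% and AP-1 5.83%. An equal lowest background-scaled height gave presence of 26.6% and 51.8% for BMAL1 and 35.3% and 46.2% for HIF2α (shCNT, shBMAL1), 64.6% of BMAL1 and 67.8% of HIF2α members in both lists, and co-occupancy of 23.4%. The cause of these shifts was not tested. No paired analysis was possible because each group has 1 list and no replicate values, so no replicate could be left out either. With 3 to 8 fragments at most summits, absence from a list means only that no peak was called at that depth.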
